A study of Rattus norvegicus with 4 samples.

Results

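Resident macrophages of the rat heart were taken here as the nuclei that carried the markers Cd163, Mrc1, F13a1 and Lyve1, and they numbered 529 of 46590 kept nuclei. A nucleus had to hold at least 500 unique molecular identifiers (UMIs, each a captured RNA molecule) from at least 300 genes, with at most 10% of UMIs from mitochondrially encoded genes. It then needed at least 3 UMIs of the markers, from at least 2 of the 4 genes, making up at least 0.2% of its UMIs and outnumbering those of Spp1 and Gpnmb together, and no UMI of the lymphatic factor Prox1. The nuclei were chosen by these measured UMI counts, so the levels of Cd163, Mrc1, F13a1, Lyve1, Spp1, Gpnmb and Prox1 are given as description alone. The nuclei came from the infarct zone of Sprague Dawley rats in 4 samples, named Sham, MI_1H, MI_6H and MI_24H, where MI stands for myocardial infarction made by ligating a coronary artery. The treatment labels call the infarct samples reperfused, while the series text sets ligated hearts apart from reperfused ones, so what the hours in the names count is not settled; sex, age and the number of animals behind a sample were not given in the sources used here. The 4 libraries lay in 1 matrix and were told apart by the barcode suffixes 1 to 4, which no source ties to the samples. Libraries are therefore numbered by suffix, no comparison with Sham was made, and, with 1 library per suffix, no test was possible. Each interval below is a 95% interval for counting error only.

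Macrophages that live in the heart largely stem from cells seeded before birth and renew locally. They lie along vessels and between cardiomyocytes, take up dying cells and released haemoglobin, and are known for scavenger receptors such as CD163 and the mannose receptor MRC1. After infarction, monocytes enter the injured wall and become macrophages, among them a state known for the secreted matrix protein osteopontin (Spp1) and the lysosome-associated glycoprotein Gpnmb. Lyve1, a hyaluronan receptor, is shared by resident macrophages along vessels and by lymphatic endothelium, and F13a1 encodes the A chain of clotting factor XIII.

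The members numbered 127 in library 1, 17 in library 2, 287 in library 3 and 98 in library 4. Their share of kept nuclei was 1.41% (1.18 to 1.67%) in library 1, 0.116% (0.0678 to 0.186%) in library 2, 1.74% (1.55 to 1.96%) in library 3 and 1.5% (1.22 to 1.83%) in library 4. Libraries 1, 3 and 4 lay close together and library 2 far below them. Members held medians of 1110, 734, 2528 and 1991 UMIs in libraries 1 to 4, against 1372, 609, 2038 and 2361 in the other kept nuclei. With 17 members, library 2 was left out of the comparisons across genes. Of the 529 members, 8 carried a barcode sequence that a kept nucleus of another library also carried, and 11 held over 10000 UMIs; no doublet caller was run.

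Spp1 was counted in most members of libraries 2, 3 and 4 and hardly at all in library 1, and this bears on every comparison below. Spp1 was seen in 1.57% of members in library 1, 100% in library 2, 99% in library 3 and 84.7% in library 4. Summed over members it stood at 11.8, 1736, 1968 and 991 CPM (UMI counts scaled to the total of the group) in libraries 1 to 4, against 18.9, 3279, 4243 and 1521 CPM in all other kept nuclei. The condition that the markers outnumber Spp1 and Gpnmb alone kept 711 nuclei out of the member set in library 3, 60 in library 4, 28 in library 2 and 0 in library 1. Without that condition, an alternative chosen after seeing the data, the share was 1.41% in library 1, 0.308% in library 2, 6.07% in library 3 and 2.42% in library 4, so the gaps between libraries 1, 3 and 4 depended on it while their order did not.

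The label was checked against 8 general macrophage genes that the rule did not use, among them Csf1r, Ptprc, Cd68, Adgre1, Cybb, Tyrobp and Laptm5. At least 1 UMI of them was seen in 85.8% of members in library 1, 58.8% in library 2, 99.3% in library 3 and 99% in library 4, against 9.94, 50.3, 95.6 and 71.9% of other kept nuclei. Their summed level was 1863 CPM (1663 to 2080) in members and 102 CPM (97.2 to 107) in other nuclei of library 1, 2801 against 2061 CPM in library 3, and 2160 against 831 CPM in library 4. In library 2 the sums were 890 CPM (544 to 1375) in members and 878 CPM in other nuclei, and Cd68 and Adgre1 were at 0 there. Csf1r, the receptor for the macrophage growth factor CSF1, stood at 507, 468 and 321 CPM in members of libraries 1, 3 and 4, against 9.83, 214 and 81.3 CPM in other nuclei. Adgre1, which encodes F4/80, stood at 230, 69.8 and 122 CPM in members, against 2.86, 20.5 and 10.5 CPM in other nuclei. The macrophage label thus held in libraries 1, 3 and 4 on genes outside the rule, while in library 2 the interval over its 17 members took in the level of the other nuclei.

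**Figure D1:**
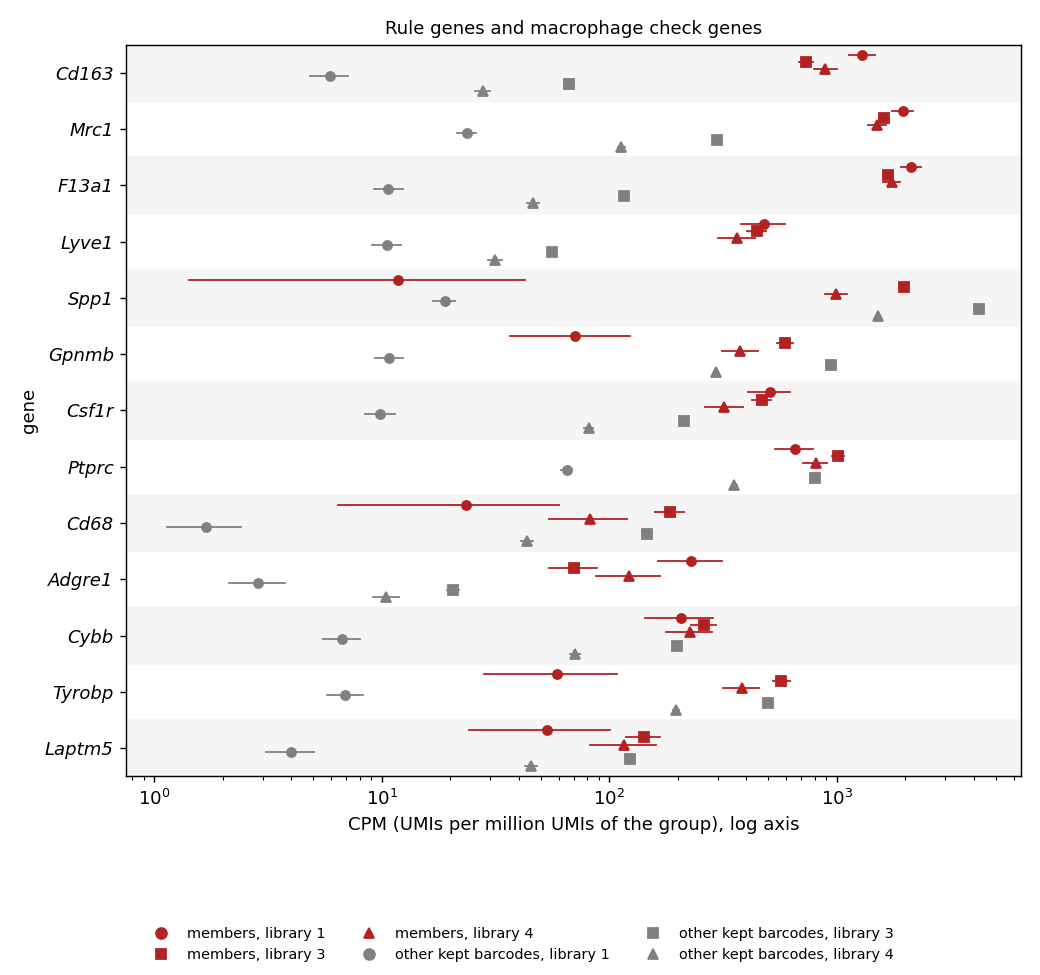
Level in CPM (log axis) of the rule genes, of Spp1 and Gpnmb and of macrophage genes outside the rule, in members (red) and all other kept nuclei (grey) of libraries 1, 3 and 4, with 95% Poisson intervals. Members lie right of the other nuclei of the same library for every macrophage gene shown, by the widest margin in library 1, and Spp1 in members is lowest in library 1.

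Among the rule genes of libraries 1, 3 and 4, Mrc1 was seen in the largest share of members and Lyve1 in the smallest. Mrc1 was seen in 92.9, 96.2 and 95.9% of them, F13a1 in 83.5, 88.5 and 82.7%, Cd163 in 72.4, 73.5 and 77.6% and Lyve1 in 38.6, 59.6 and 56.1%. Members with 2, 3 and all 4 rule genes numbered 142, 207 and 180. In cardiomyocyte nuclei, which should lack the gene, Cd163 was seen in 0.858% of library 1, 12.7% of library 3 and 6.87% of library 4, at median depths of 2567, 3806 and 4146 UMIs, above those of the members. Cd163 summed to 1297 CPM (1131 to 1480) in members of library 1, 732 CPM (680 to 788) in library 3 and 893 CPM (794 to 1002) in library 4. F13a1 stood at 2123, 1683 and 1747 CPM, Mrc1 at 1952, 1621 and 1502 CPM and Lyve1 at 478, 445 and 364 CPM in members of the same libraries. Mrc1 and Lyve1 shared an order of the libraries, whereas for Cd163 and F13a1 library 3 was lowest. These genes chose the members, and depth differed between libraries, so the orders are description alone.

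Nuclei near the edge of the rule were looked at with a sum over Stab1, Slc9a9, C1qa, C1qb and C1qc, 5 genes outside it. In library 1 this sum was 5145 CPM (3926 to 6623) in the 14 members with exactly 3 marker UMIs, 5047 CPM in the 92 members with 5 or more, and 5304 CPM (3973 to 6938) in 13 nuclei left out for having only 2. All other kept nuclei of library 1 stood at 236 CPM. In library 1 the intervals just inside and just outside the rule overlapped. In library 3 the sum was 1894 CPM (1036 to 3178) in the 6 members with exactly 3 marker UMIs, 3721 CPM in members with 5 or more marker UMIs, 2148 CPM (2079 to 2218) in the 711 nuclei left out by Spp1 and Gpnmb alone, and 690 CPM in all other nuclei. In library 4 the sum was 0 CPM in the 1 member with exactly 3 marker UMIs, 3468 CPM in members with 5 or more, 1098 CPM (356 to 2562) in 6 nuclei with only 2, 1747 CPM in the 60 left out by Spp1 and Gpnmb alone and 344 CPM in all other nuclei. Nuclei left out by Spp1 and Gpnmb alone thus lay between members with 5 or more marker UMIs and all other nuclei in libraries 3 and 4.

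Cardiomyocyte, fibroblast, endothelial and mural markers summed lower in members than in other kept nuclei of every library, and varied between libraries in both. Cardiomyocyte markers summed to 3868, 2182, 1355 and 1808 CPM in members of libraries 1 to 4, against 14457, 4895, 2129 and 3505 CPM in other kept nuclei. Fibroblast markers summed to 731, 1291, 3678 and 2273 CPM in members, against 1248, 2435, 5267 and 2893 CPM in other nuclei. Lymphatic markers, of which Prox1 was at 0 by the rule, summed to 94.3, 223, 83.1 and 79.5 CPM in members and to 279, 209, 303 and 296 CPM in other nuclei. B cell markers summed to 1002, 1558, 803 and 912 CPM in members and to 1472, 1692, 1484 and 1769 CPM in other nuclei, with the B cell genes Ms4a1 and Pax5 at 0 in members of every library. T or NK cell markers summed to 53.1, 44.5, 50.3 and 48.9 CPM in members and to 28.8, 54.5, 65.1 and 47.2 CPM in other nuclei, and Cd3e and Cd3d were at 0 in members of libraries 1, 2 and 3 but not of library 4. Dendritic cell markers summed to 200, 401, 136 and 220 CPM in members and to 153, 169, 211 and 216 CPM in other nuclei, so they were higher in members of libraries 1, 2 and 4. Only in library 2 did the member interval, 183 to 761 CPM, lie above the level of other nuclei. Neutrophil, Schwann and mast cell markers lay on either side of the other nuclei, the widest gap above them being that of mast cell markers in library 1, at 41.3 CPM in members against 22.7 CPM. The part of such RNA in the differences below was measured only as the alternatives in the closing section.

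Before the values of single genes, the promoter windows of 4 of them are shown, because the transcription factor PU.1 is required for macrophage identity. Each window runs from 250 bases before to 50 bases after the start of the gene in RefSeq's GRCr8 table, which held 14 of 18 genes looked up. The motif was the PU.1 core AGGAAGT, searched on both strands, and its other strand reads ACTTCCT. Capitals mark the matches. F13a1 lies on the plus strand at chr17:28020947-28021246, Stab1 on the minus strand at chr16:6367310-6367609, C1qa on the minus strand at chr5:154419884-154420183 and C1qb on the minus strand at chr5:154407778-154408077.

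F13a1: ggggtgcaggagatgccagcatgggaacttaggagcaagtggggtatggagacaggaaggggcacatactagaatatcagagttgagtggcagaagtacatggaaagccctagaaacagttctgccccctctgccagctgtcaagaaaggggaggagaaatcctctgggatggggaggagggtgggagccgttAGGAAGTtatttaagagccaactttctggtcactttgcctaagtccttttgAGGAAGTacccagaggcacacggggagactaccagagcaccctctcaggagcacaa
Stab1: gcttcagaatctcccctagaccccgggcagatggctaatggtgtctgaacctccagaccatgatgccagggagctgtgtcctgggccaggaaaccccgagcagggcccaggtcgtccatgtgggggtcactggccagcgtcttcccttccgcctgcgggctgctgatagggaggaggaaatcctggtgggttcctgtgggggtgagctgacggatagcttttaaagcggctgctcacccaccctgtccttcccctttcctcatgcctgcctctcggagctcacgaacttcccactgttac
C1qa: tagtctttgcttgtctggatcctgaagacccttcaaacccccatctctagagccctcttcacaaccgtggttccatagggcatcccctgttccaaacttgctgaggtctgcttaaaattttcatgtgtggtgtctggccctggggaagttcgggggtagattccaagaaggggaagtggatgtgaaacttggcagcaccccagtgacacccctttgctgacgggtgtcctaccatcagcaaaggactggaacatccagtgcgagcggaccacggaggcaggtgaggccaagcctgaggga
C1qb: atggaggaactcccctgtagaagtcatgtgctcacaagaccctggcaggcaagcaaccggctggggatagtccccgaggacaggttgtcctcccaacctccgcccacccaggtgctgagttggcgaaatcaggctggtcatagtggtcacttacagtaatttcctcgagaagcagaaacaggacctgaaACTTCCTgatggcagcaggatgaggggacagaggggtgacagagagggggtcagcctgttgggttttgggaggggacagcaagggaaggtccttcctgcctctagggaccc

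The window of F13a1 held the PU.1 core at 2 places, that of C1qb held it once, and those of C1qa and Stab1 did not hold it. Among the 14 genes, 4 held the PU.1 core, while 8.41% of all 33469 promoters in the table held it. A match describes the letters in the window and is not evidence of binding, and this count is too small to set against the background.

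The closest comparison was with Spp1 macrophages of the same library, that is, nuclei with at least 3 UMIs of Spp1 and Gpnmb, both seen and outnumbering the 4 resident markers, and at least 2 UMIs from at least 2 of the 8 macrophage genes. They numbered 9051 in library 3 and 742 in library 4, which made up 55 and 11.4% of kept nuclei, with medians of 2107 and 2670 UMIs. Library 1 held 11 of them and was left out. Because so large a share of library 3 met this rule, a strict set of 1012 and 73 nuclei was also formed after seeing the data, with at least 3 Gpnmb UMIs, Gpnmb at 0.2% and the 8 macrophage genes at 0.4% of UMIs or more. The name Spp1 macrophages is that of the rule. In libraries 3 and 4 their fibroblast markers summed to 4888 and 2734 CPM, against 5267 and 2893 CPM in all kept nuclei outside the members. The 8 macrophage genes, which helped to choose both sets, summed to 2630 and 2034 CPM, and to 5435 and 5507 CPM in the strict set. Without nuclei holding markers of other classes, 5198 and 547 Spp1 macrophages remained. Differences are log2 ratios of CPM + 10, and the genes of either rule were left out. In both libraries, 71 of 11339 genes were at least 2-fold higher in members (0.626%) and 11 at least 2-fold lower (0.097%). In library 3 alone the counts were 86 higher (0.584%) and 27 lower (0.183%) of 14717 genes, and in library 4 alone 175 higher (1.54%) and 260 lower (2.29%) of 11339. Against the strict set 249 (4.46%) were higher and 85 (1.52%) lower of 5577 genes in both libraries, with 466 (4.4%) and 161 (1.52%) of 10602 in library 3 and 760 (13.6%) and 328 (5.88%) of 5578 in library 4. The named genes are the 15 with the highest and the 15 with the lowest differences that held in both libraries.

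**Figure D2:**
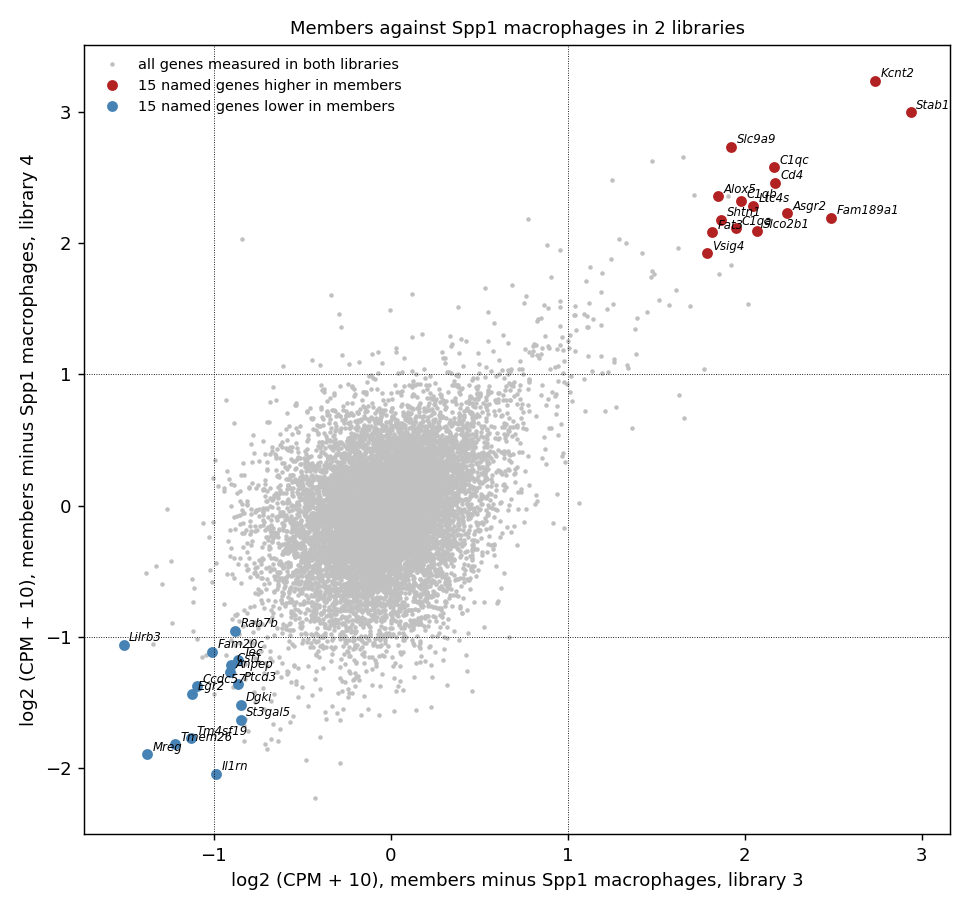
Difference between members and Spp1 macrophages, as log2 (CPM + 10), in library 3 (x axis) and library 4 (y axis) for the genes measured in both, with dotted lines at 2-fold. The 15 named higher genes (red) lie at the upper right, led by Stab1 and Kcnt2, apart from the main cloud, and the 15 named lower genes (blue) at its lower left edge.

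Surface receptors among the named higher genes were Stab1, Asgr2, Vsig4 and Cd4. Stab1, the scavenger receptor stabilin-1, stood at 1309, 401, 899 and 701 CPM in members of libraries 1 to 4, against 108 and 79.2 CPM in Spp1 macrophages of libraries 3 and 4. It was 8.29-fold (7.68 to 8.94) and 8.85-fold (7.35 to 10.7) higher in libraries 3 and 4. Stab1 was seen in 72.4, 69 and 71.4% of members of libraries 1, 3 and 4, in 16.7 and 17.5% of Spp1 macrophages of libraries 3 and 4, and in 1.54, 8.28 and 8.29% of cardiomyocyte nuclei. With every nucleus thinned to 500 UMIs, Stab1 was seen in 44.9% (36.1 to 54%), 33.1% (27.7 to 38.9%) and 34.7% (25.4 to 45%) of members of libraries 1, 3 and 4, against 4.28 and 3.5% of Spp1 macrophages of libraries 3 and 4. Asgr2, a subunit of the asialoglycoprotein receptor, stood at 584, 0, 127 and 119 CPM in members of libraries 1 to 4, against 19 and 17.6 CPM in Spp1 macrophages. Vsig4, a complement receptor of resident macrophages, stood at 17.7, 0, 64.6 and 79.5 CPM in members, against 11.6 and 13.6 CPM in Spp1 macrophages. Cd4, which rat macrophages are known to express, stood at 307, 0, 149 and 135 CPM in members, against 25.2 and 16.3 CPM in Spp1 macrophages, or 5.91-fold (4.91 to 7.07) and 8.26-fold (5.37 to 12.7) higher. Cd3e and Cd3d were at 0 in members of libraries 1, 2 and 3 but not of library 4, so the part of T cell RNA in Cd4 there was not tested.

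The 3 chains of C1q, the recognition protein that starts the classical complement cascade and also tags dying cells, were all higher in members. C1qa stood at 118, 0, 288 and 266 CPM in members of libraries 1 to 4, against 67.1 and 53.9 CPM in Spp1 macrophages of libraries 3 and 4. C1qb stood at 153, 89, 315 and 340 CPM in members, against 72.4 and 60.2 CPM in Spp1 macrophages. C1qc stood at 419, 44.5, 307 and 395 CPM in members, against 60.6 and 57.9 CPM in Spp1 macrophages, or 5.06-fold (4.46 to 5.73) and 6.82-fold (5.39 to 8.61) higher. The chains did not follow one order across libraries: C1qa and C1qb were lower in members of library 1 than of libraries 3 and 4, and C1qc was not. C1qa was seen in 11.8, 47.4 and 45.9% of members of libraries 1, 3 and 4 and in 0.858, 14.5 and 10.1% of cardiomyocyte nuclei. At 500 UMIs per nucleus these shares were 7.09, 11.1 and 12.2% in members against 0.207, 3.12 and 1.3% in cardiomyocyte nuclei.

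A pair of enzymes that make leukotriene C4 from arachidonic acid was higher in members. Ltc4s, leukotriene C4 synthase, stood at 395, 0, 65.6 and 85.7 CPM in members of libraries 1 to 4, against 8.27 and 9.64 CPM in Spp1 macrophages, which was 7.93-fold (5.92 to 10.5) and 8.88-fold (5.09 to 15.5) higher. Alox5, the 5-lipoxygenase, stood at 336, 44.5, 79 and 104 CPM in members, against 14.7 and 12.3 CPM in Spp1 macrophages, or 5.39-fold (4.17 to 6.88) and 8.45-fold (5.15 to 13.8) higher. Both were higher in members of library 1 than of libraries 3 and 4, and the part of free RNA in that gap was not tested. Other enzymes of the pathway were looked up after these values were seen. Alox5ap, which presents arachidonic acid to Alox5, was 1.56-fold (1.31 to 1.84) and 2.15-fold (1.49 to 3.05) higher in members of libraries 3 and 4, and Lta4h, which makes leukotriene B4, was at 0.794-fold (0.577 to 1.07) and 1.44-fold (0.849 to 2.31). Hpgds, the haematopoietic prostaglandin D synthase and a gene of the resident list, stood at 53.1, 17.4 and 18.4 CPM in members of libraries 1, 3 and 4, against 1.82 and 1.66 CPM in Spp1 macrophages. That was 9.61-fold (5.21 to 16.9) and 11-fold (2.81 to 45.7) higher, from 17 and 6 UMIs in members.

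Kcnt2, Slc9a9 and Slco2b1, which move ions or organic anions across membranes, were also among the named higher genes. Kcnt2, a sodium-activated potassium channel, stood at 1916, 312, 622 and 655 CPM in members of libraries 1 to 4, against 84.6 and 60.5 CPM in Spp1 macrophages, and was 7.35-fold (6.71 to 8.04) and 10.8-fold (8.83 to 13.3) higher. Slc9a9, a sodium and proton exchanger of endosomes, stood at 2930, 401, 1883 and 1768 CPM in members, against 488 and 258 CPM in Spp1 macrophages. Slco2b1, an organic anion transporter, stood at 890, 223, 412 and 352 CPM in members, against 90.6 and 75.2 CPM in Spp1 macrophages. All 3 were higher in members of library 1 than in members of libraries 3 and 4. The estimated share of free RNA, an upper estimate, was 67.6 and 60.3% in members of libraries 3 and 4, and its part in these gaps was not tested. This share is the content of cardiomyocyte, fibroblast and endothelial markers relative to all kept nuclei of the library, and does not come from empty droplets. The remaining named genes were Fam189a1, Shtn1, which encodes the axon growth protein shootin-1, and the cadherin Fat3. Shtn1 stood at 218, 44.5, 86.2 and 116 CPM in members against 16.3 and 18 CPM in Spp1 macrophages, and Fam189a1 at 289, 89, 171 and 122 CPM against 22.3 and 19 CPM. Fat3 stood at 94.3, 89, 103 and 122 CPM in members against 22 and 21.3 CPM in Spp1 macrophages, and reached 230, 149 and 186 CPM in another cell class of libraries 1, 3 and 4. All 15 genes were higher in members under every alternative run, the strict set included, where Vsig4 came closest at 64.6 against 21.3 CPM in library 3 and 79.5 against 53.9 CPM in library 4.

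**Figure D3:**
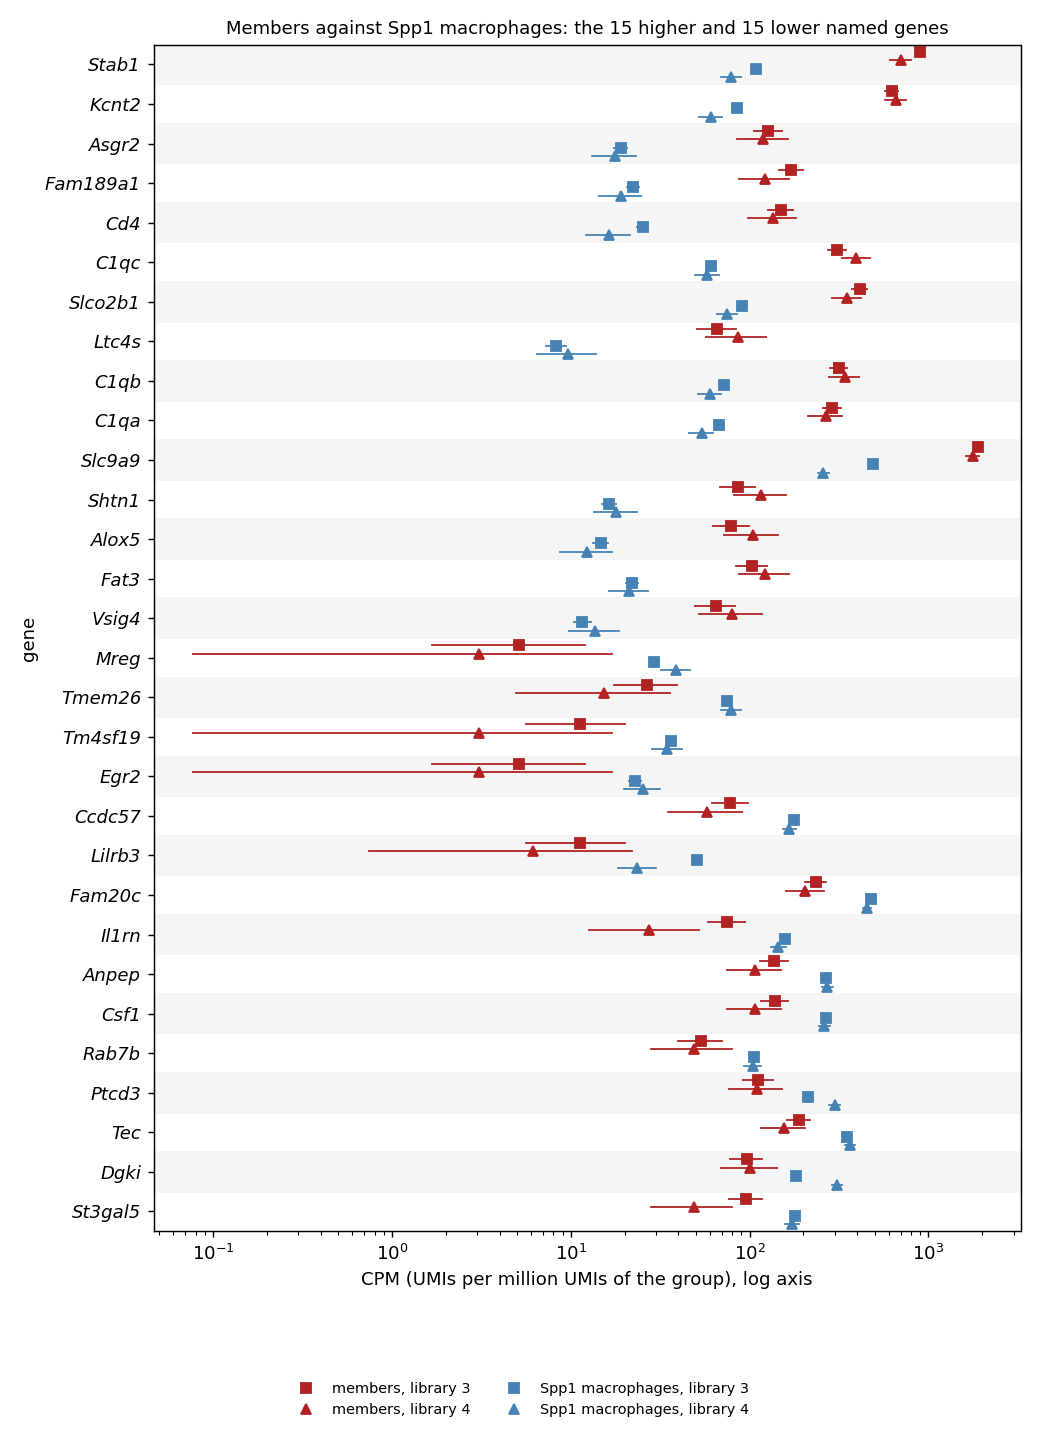
Level in CPM (log axis) of the 15 higher and 15 lower named genes in members (red) and Spp1 macrophages (blue) of library 3 (squares) and library 4 (triangles), with 95% Poisson intervals. The top 15 genes, from Stab1 to Vsig4, have members on the right with no overlap of intervals. Most of the lower genes, from Mreg to St3gal5, have smaller separations.

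With 10 CPM added, the genes lower in members in both libraries were fewer, and the named ones were mostly less far apart. With 1 CPM added, 109 genes were higher and 102 lower in both libraries, and with free RNA subtracted 624 and 567. In library 4 alone, 260 genes were lower and 175 higher. Csf1, the growth factor for macrophages, stood at 41.3, 89, 138 and 107 CPM in members of libraries 1 to 4, against 268 and 262 CPM in Spp1 macrophages of libraries 3 and 4, which was 0.517-fold (0.433 to 0.613) and 0.408-fold (0.282 to 0.572). Il1rn, the interleukin-1 receptor antagonist, stood at 0, 89, 74.9 and 27.5 CPM in members, against 158 and 145 CPM in Spp1 macrophages. Fam20c, the kinase that phosphorylates secreted proteins, stood at 29.5, 223, 234 and 205 CPM in members, against 480 and 455 CPM in Spp1 macrophages. Anpep, an aminopeptidase of myeloid cells, stood at 17.7, 44.5, 137 and 107 CPM in members, against 266 and 272 CPM in Spp1 macrophages. These 4 genes were low in members of library 1, where they were also low in other kept nuclei, at 61.3, 0.73, 53.4 and 12.8 CPM for Csf1, Il1rn, Fam20c and Anpep.

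In library 3 the wider differences were those of genes with lower counts. In library 4 the widest was that of Il1rn, given above, at -2.04 on the log2 scale with 10 CPM added. Mreg, melanoregulin, stood at 5.13 and 3.06 CPM in members of libraries 3 and 4, against 29.3 and 38.6 CPM in Spp1 macrophages. Tm4sf19, a tetraspan membrane protein, stood at 11.3 and 3.06 CPM in members against 36.5 and 34.6 CPM, and Tmem26 at 26.7 and 15.3 CPM against 75.2 and 79.2 CPM. Egr2, an immediate early transcription factor, stood at 5.13 and 3.06 CPM in members against 22.9 and 25.3 CPM, and the inhibitory receptor gene Lilrb3 at 11.3 and 6.12 CPM against 50.6 and 23.6 CPM. In members of library 4 the counts behind Mreg, Tm4sf19 and Egr2 were 1 UMI each, so their ratios there, 0.0793 (0.00199 to 0.451), 0.0884 (0.00222 to 0.504) and 0.121 (0.00302 to 0.695), are loose. The others were Ccdc57, the small GTPase Rab7b, Ptcd3, which acts in mitochondrial translation, the kinase Tec, the diacylglycerol kinase Dgki and the ganglioside synthase St3gal5, at 0.439 to 0.538-fold in library 3 and 0.284 to 0.47-fold in library 4. Against the strict set all 15 were further apart, with log2 differences of -1.31 for Csf1 to -2.65 for Mreg in library 3.

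Gene lists gave the same contrast by group. The lists and the further genes named from them were chosen with earlier results of these data known, the further genes after their values were seen, and neither is independent support. Of 24 genes typical of tissue-resident macrophages, 19 were measured, and all 19 were higher in members in both libraries, 9 of them at least 2-fold. Over all genes, 2967 of 11339 were higher in both libraries, 71 of them at least 2-fold. The median log2 difference was 0.96 in library 3 and 1.39 in library 4, beside -0.03 and -0.04 over all genes. Colec12, a scavenger receptor collectin, stood at 1492, 401, 1410 and 1071 CPM in members of libraries 1 to 4, against 520 and 276 CPM in Spp1 macrophages, and Dab2, an adaptor for endocytosis, at 843, 223, 1505 and 1132 CPM against 572 and 439 CPM. Selenop, the selenium carrier, stood at 413, 0, 53.3 and 55.1 CPM in members against 11.3 and 12.6 CPM in Spp1 macrophages. Siglec1, the sialic acid receptor of resident macrophages, stood at 189, 44.5, 33.8 and 97.9 CPM in members against 7.47 and 17 CPM. The smallest differences of the list were those of Gas6, at 0.18 and 0.32 on the log2 scale, and Ccl24, at 0.19 and 0.19.

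Folr2, a folate receptor much used to mark resident macrophages, was less far apart than Stab1. It stood at 259, 44.5, 178 and 165 CPM in members of libraries 1 to 4, against 92.9 and 61.5 CPM in Spp1 macrophages, which was 1.92-fold (1.64 to 2.24) and 2.68-fold (1.94 to 3.65) higher. Against the strict set it was 1.34-fold (1.1 to 1.63) and 1.53-fold (0.864 to 2.87). Mertk, the receptor by which macrophages engulf dying cells, had a direction that depended on the Spp1 macrophages chosen: it stood at 254 and 404 CPM in members of libraries 3 and 4, against 204 and 323 CPM in Spp1 macrophages but 409 and 843 CPM in the strict set. Over the resident list, the strict set left 14 of 17 measured genes higher in both libraries, with medians of 0.65 and 0.66. Over all genes measured against the strict set, 2267 of 5577 were higher in both.

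Of the list for recruited and lipid-handling macrophages, 16 of 21 measured genes were lower in members in both libraries, none at least 2-fold in both, with medians of -0.42 and -0.43. Over all genes, 4002 of 11339 were lower in both libraries. Lgals3, the lectin galectin-3, stood at 506 and 297 CPM in members of libraries 3 and 4, against 682 and 507 CPM in Spp1 macrophages and 1192 and 1166 CPM in the strict set. Cd9, a tetraspanin, stood at 96.4 and 110 CPM in members, against 189 and 234 CPM in Spp1 macrophages, although other cell classes held more of it, at 477 and 540 CPM. Lysosome and lipid genes had medians of -0.16 and -0.12, and -0.82 and -0.79 against the strict set, where 18 of 21 were lower in both libraries. Against that set, 1707 of 5577 of all genes were lower in both. Mitf, a transcription factor of lysosomal genes, stood at 555 and 404 CPM in members, against 761 and 843 CPM in Spp1 macrophages and 1642 and 2413 CPM in the strict set. The strict set differs in both Gpnmb and macrophage genes and leaves fewer genes measured, so these moves cannot be put down to either.

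**Figure D4:**
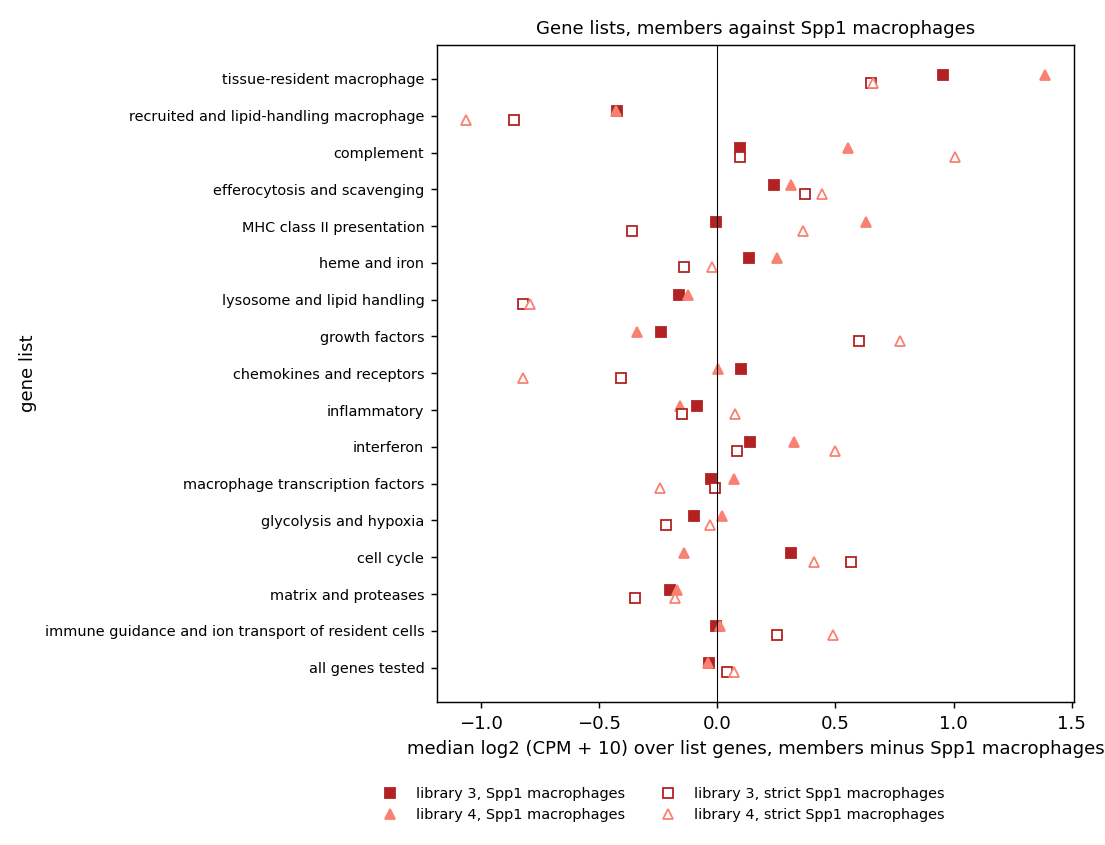
Median log2 (CPM + 10) difference, members minus Spp1 macrophages, over the measured genes of each list and over all genes, in library 3 (squares) and library 4 (triangles), against Spp1 macrophages (filled) and the strict set (open). The resident list lies furthest right with the filled symbols, the recruited list left of 0 with both, and the lysosome list moves left with the strict set.

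The other lists held few genes past 2-fold in both libraries, beside 0.626% of all genes higher and 0.097% lower. Of 12 complement genes, 4 were at least 2-fold higher in members in both libraries, the 3 C1q chains among them. The receptors C3ar1 and C5ar1 differed less, C5ar1 being 1.09-fold (0.935 to 1.26) and 1.55-fold (1.18 to 2). Of 19 genes of uptake of dying cells and scavenging, 4 were at least 2-fold higher in both libraries, namely Stab1, Colec12, Dab2 and the lectin receptor gene Clec10a, which stood at 483, 44.5, 132 and 220 CPM in members against 35.2 and 26.6 CPM. Of 19 heme and iron genes, Heph, a ferroxidase that aids iron export, was at least 2-fold higher in both, at 413, 44.5, 107 and 144 CPM in members against 31.8 and 34.6 CPM. The ferroportin gene Slc40a1 was 3.86-fold (2.66 to 5.44) and 2.48-fold (0.908 to 5.86) higher, on 7 UMIs in members of library 4. Hmox1, which breaks down heme, stood at 169 and 147 CPM in members against 135 and 115 CPM.

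Among 16 growth factors, Pdgfc was at least 2-fold higher in both libraries, at 177, 0, 63.6 and 45.9 CPM in members of libraries 1 to 4, against 8.13 and 9.31 CPM in Spp1 macrophages, or 7.82-fold (5.81 to 10.4) and 4.93-fold (2.45 to 9.55). Igf1 stood at 336, 44.5, 205 and 229 CPM in members, against 126 and 91.8 CPM in Spp1 macrophages. The list as a whole had medians of -0.24 and -0.34 over these 16 genes, and of 0.6 and 0.77 over the 6 measured against the strict set. The medians differ in sign but rest on unlike sets of genes, so no turn in direction is read from them. Among 16 inflammatory genes none was past 2-fold in both libraries, although Il18 was 2.08-fold (1.77 to 2.43) and 2.45-fold (1.79 to 3.31) higher in members and the inflammasome sensor Nlrp3 2.02-fold (1.65 to 2.45) and 2.27-fold (1.53 to 3.29), without the added 10 CPM. Tnf and Il6 were at 0 in members of libraries 1, 3 and 4. The 9 measured genes of MHC class II presentation gave medians of -0.01 and 0.63, and Cd74, the invariant chain, stood at 262 and 168 CPM in members against 263 and 138 CPM. None of the 18 chemokine, 19 interferon, 32 transcription factor, 21 glycolysis, 22 cell cycle or 24 matrix genes was at least 2-fold apart in both libraries; 2 of 15 guidance and ion transport genes were. Of these, Slc9a9 is given above, and the nucleotide receptor gene P2ry6 stood at 165 and 150 CPM in members against 64.7 and 69.2 CPM.

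Members were also set against all other kept nuclei of the same library. In library 1, 1492 of 13336 genes (11.2%) were at least 2-fold higher in members and 1120 (8.4%) lower, against 135 (0.859%) and 80 (0.509%) of 15721 genes in library 3 and 437 (2.97%) and 469 (3.19%) of 14691 genes in library 4. In all 3 libraries 106 genes (0.808%) were at least 2-fold higher and 15 (0.114%) lower. The other nuclei of the libraries differ in kind, since 55% of kept nuclei in library 3 met the Spp1 macrophage rule, so the 3 counts are not comparable with one another. Of 17 measured genes of the resident list, 11 were at least 2-fold higher in all 3 libraries, and the median log2 differences were 3.49, 1.24 and 2.13. Stab1 was 75.9-fold (63.6 to 90.5) higher in library 1, 10.1-fold (9.43 to 10.9) in library 3 and 15.2-fold (13.2 to 17.6) in library 4. Its level in members varied less over the libraries than its level in other nuclei, which was 17.2, 88.6 and 46 CPM.

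**Figure D5:**
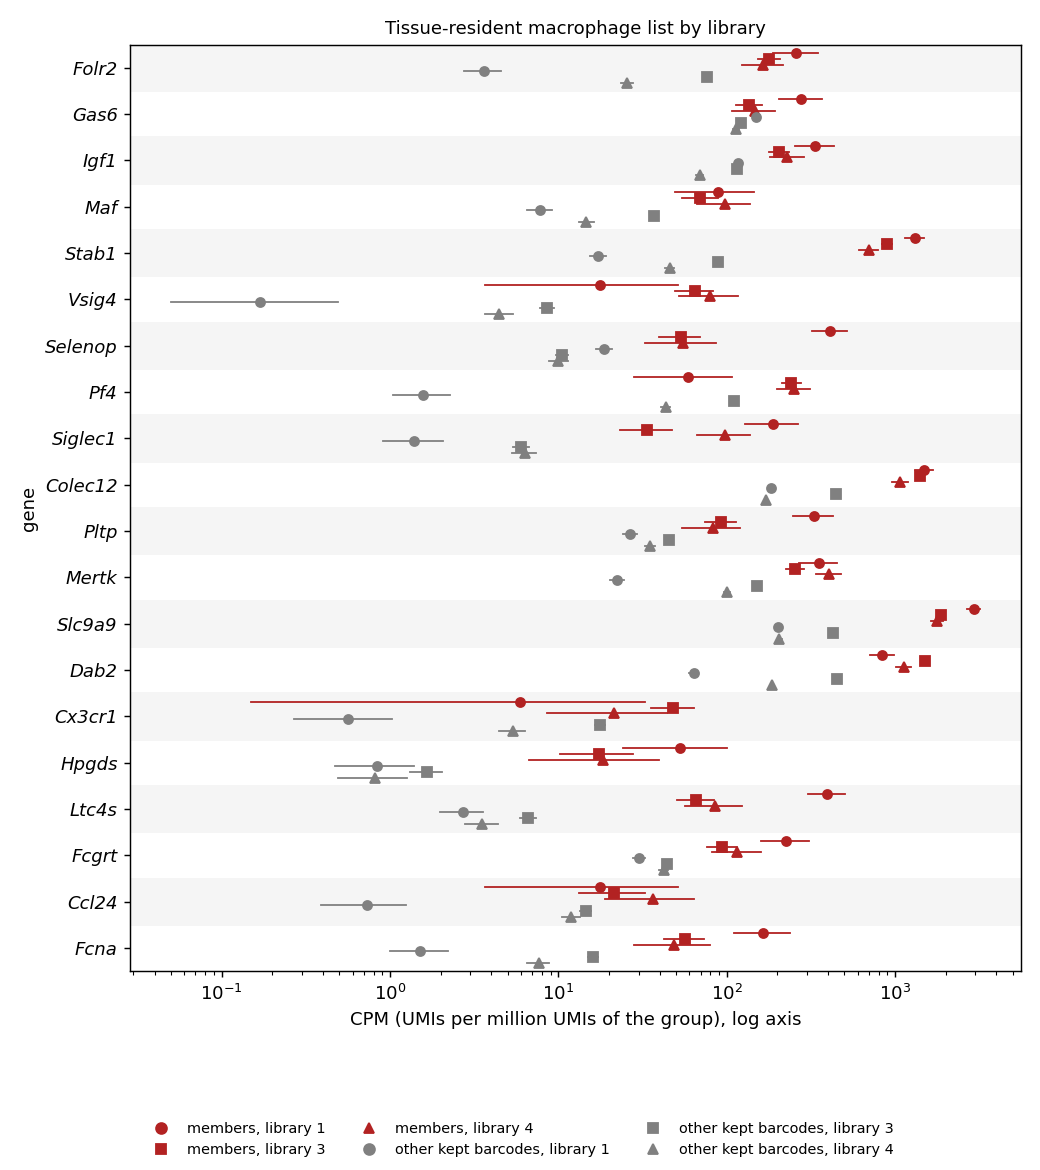
Level in CPM (log axis) of genes of the tissue-resident macrophage list in members (red) and all other kept nuclei (grey) of libraries 1, 3 and 4, with 95% Poisson intervals and values of 0 not drawn. Members lie right of other nuclei of the same library for nearly all genes, and the grey points of library 1 lie furthest left for genes such as Folr2, Pf4 and Vsig4.

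Between libraries, the member profile was compared over libraries 1, 3 and 4. Of 9403 genes, 3255 (34.6%) spanned at least 2-fold between the highest and the lowest library. Members of library 3 were at least 2-fold above those of library 1 for 1777 genes (18.9%) and below them for 706 (7.51%), members of library 4 above those of library 1 for 1621 (17.2%) and below for 653 (6.94%), while between libraries 4 and 3 the counts were 221 (2.35%) and 220 (2.34%). By these counts library 1 stood apart and libraries 3 and 4 lay closer together. However, genes needed only 20 UMIs summed over the members of libraries 1, 3 and 4. Those members held 169598, 974897 and 326899 UMIs, so a gene could enter through library 3 alone. The part of depth and of this filter in the counts was not tested. The 12 genes with the widest spans were Lgals1, Hbb, Rps28, Fn1, Hspb1, Myl12a, Vcan, S100a6, S100a4, Rps27a, Rps27 and Timp1, and all were lowest in members of library 1. Lgals1, the lectin galectin-1, stood at 5.9, 485 and 211 CPM in members of libraries 1, 3 and 4, and at 22, 512 and 230 CPM in other nuclei. Fn1, fibronectin, stood at 53.1, 1556 and 850 CPM in members, and at 44.3, 1819 and 831 CPM in other nuclei. Hbb, the haemoglobin beta chain of red cells, stood at 11.8, 186 and 615 CPM in members and 6.35, 210 and 536 CPM in other nuclei. The library 1 values of Lgals1 and Hbb in members rest on very few of the 169598 UMIs there, so their spans are loose. All 12 followed the same course in the other kept nuclei. In libraries 3 and 4 these included the Spp1 macrophages, 55 and 11.4% of kept nuclei. The mitochondrial share of UMIs also moved with the libraries, at medians of 0.075, 1.1 and 1.23% in members and 0.0744, 1.25 and 1.08% in other nuclei, and its part in these spans was not tested.

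Some genes differed between libraries in members and less so, or the other way, in other nuclei. Ltc4s, Selenop and Ctss, a lysosomal protease, were highest in members of library 1, where the part of free RNA was not estimated. Selenop stood at 413 CPM (322 to 521) in library 1, 53.3 CPM (39.8 to 69.9) in library 3 and 55.1 CPM (32.6 to 87) in library 4, against 18.8, 10.5 and 10 CPM in other nuclei. Ctss stood at 596, 171 and 327 CPM in members, against 10.4, 84.9 and 50.9 CPM in other nuclei, where the order was reversed. The interferon-induced antiviral gene Mx1 stood at 53.1 CPM (24.3 to 101), 5.13 CPM (1.67 to 12) and 135 CPM (97.8 to 181) in members of libraries 1, 3 and 4, against 6.68, 7.32 and 19.7 CPM in other nuclei. In library 4 Mx1 was 3.58-fold (2.47 to 5.12) higher in members than in Spp1 macrophages, and in library 3 it was 0.565-fold (0.182 to 1.34). Of 16 interferon genes the median log2 difference from the mean of the libraries was -0.25, -0.48 and 0.55 in members of libraries 1, 3 and 4, beside -0.06, 0.06 and 0.04 over all genes. Set against other kept nuclei of the same library, 19 interferon genes gave medians of 0.51, 0.19 and 0.32. By that measure library 4 was not the highest. Siglec1, also induced by interferon, was higher in members of library 4 than of library 3, as Mx1 was. Unlike Mx1, it was highest in members of library 1.

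Cell cycle genes were counted in members of every library compared. Mki67, a marker of cycling cells, stood at 64.9 CPM (32.4 to 116) in members of library 1 from 11 UMIs, 216 CPM (188 to 248) in library 3 and 52 CPM (30.3 to 83.3) in library 4, against 6.18, 180 and 70.7 CPM in other nuclei. In library 1 the ratio was 10.5-fold (5.09 to 19.5), and Top2a gave 10.2-fold (4.75 to 19.5) and Cenpf 14.4-fold (7.61 to 25.3). These intervals treat UMIs as independent, and whether the UMIs came from a few nuclei was not tested. Of 21 cell cycle genes, 18 were at least 2-fold higher in members than in other nuclei of library 1, where 11.2% of all genes were, 0 in library 3, where 0.859% were, and 0 in library 4, where 2.97% were. In libraries 3 and 4 another cell class held more Mki67, at 281 and 133 CPM.

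Lyve1 and MHC class II genes mark separate kinds of resident heart macrophage in mouse, and members were therefore described by whether a Lyve1 UMI was seen, although Lyve1 also helped to choose them. The MHC class II genes summed to 139 CPM in the 49 members with Lyve1 and 181 CPM in the 78 without it in library 1, to 434 CPM in 171 and 577 CPM in 116 in library 3, and to 375 CPM in 55 and 410 CPM in 43 in library 4. The ratio was 0.767 (0.305 to 1.78), 0.753 (0.619 to 0.92) and 0.915 (0.632 to 1.33), so the interval left out 1 in library 3 alone. Cd74 alone gave 0.626 (0.483 to 0.814). Members with Lyve1 were deeper in that library, at medians of 3212 against 1985 UMIs, and with every nucleus thinned to 500 UMIs the ratio was 1.34 (0.734 to 2.31), an interval that takes in both 1 and the value without thinning. No difference between the kinds is read from these values.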

How the data were processed

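Nuclei were isolated by Dounce homogenisation and sequenced with a 10x 3' v3 kit, per the labels' protocols. The deposited values are raw UMI counts in a matrix of 32623 genes and 48637 barcodes. Per the file headers, the program was cellranger 5.0.1. Per the submitters' processing notes, Cell Ranger 6.1.1 and Seurat were used with rn7. The build behind the counts is therefore not settled, and no coordinate was taken from the gene table. Filters were those of the opening. Counts were summed per library and group over 28686 symbols, and genes needed 20 UMIs in both groups together. Intervals are exact Poisson for CPM, Clopper-Pearson for shares and conditional binomial for ratios of CPM, which carry no pseudocount. PCR and sampling of nuclei are not covered by them.

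Members, the 16 gene lists and the marker genes were chosen with earlier results of these data known. Of 329 list symbols, 12 were not matched and are not analysed here, nor are 4 marker symbols. Named genes had a gene symbol and at least 50 UMIs. These were counted over both groups in each library compared or, for spans, in members of the highest library alone. Named genes also had at least 0.5 of the CPM of the highest other cell class with 50 or more barcodes. That minimum number of barcodes was added after the data were seen. The named genes were the 15 highest and 15 lowest by the smaller difference over libraries 3 and 4, and the 12 widest spans between libraries. From the lists, extreme members were named by the same plan, and all other genes were picked after their values were seen. Motif counts used the GRCr8 table of RefSeq for names and sequences only. Scripts ran in Python 3.11.15 with numpy 2.4.6, scipy 1.17.1 and pandas 2.3.3 and were tested on simulated data. Alternatives changed depth and marker minimums, the pseudocount, scaling, free RNA and the Spp1 macrophages. Some genes are not reported here.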

Additional observations from a re-analysis of the deposited data

How the results depend on the processing

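No paired analysis was possible because the labels number no replicates and no test was run; groups were compared within each library. The member share moved with depth and with the rule. In library 1 it was 1.16% with at least 1000 UMIs per nucleus, 0.799% thinned to 500 UMIs, 1.02% with at least 5 marker UMIs and 0.976% with markers at 0.4% of UMIs. In library 2 it was 0.0616% thinned, 0.0342% with 5 marker UMIs and 0.308% without the Spp1 and Gpnmb condition. In library 3 it was 0.93% thinned, 1.07% at 0.4% of UMIs, 1.34% without nuclei holding another lymphatic UMI and 6.07% without the Spp1 and Gpnmb condition, and in library 4 it was 0.675, 0.859 and 2.42% for thinning, 0.4% and that condition. The 71 genes at least 2-fold higher than in Spp1 macrophages became 109 with a pseudocount of 1 CPM, 43 with at least 100 UMIs per gene, 624 with free RNA subtracted and 249 against the strict set. The 11 lower genes became 102, 567 and 85 under a pseudocount of 1 CPM, free RNA subtraction and the strict set, 26 without nuclei holding markers of other classes and 64 thinned. The estimated share of free RNA, an upper estimate, was 67.6 and 60.3% in members and 88.8 and 77.8% in Spp1 macrophages of libraries 3 and 4. It was set by cardiomyocyte, fibroblast and endothelial markers relative to all kept nuclei of the library. The profile subtracted was that of all kept nuclei, Spp1 macrophages among them. All 30 genes named against Spp1 macrophages kept their direction in all 600 recomputed values, of which 122 moved. The MHC class II ratio by Lyve1 was 1.34 in library 3 and 2.24 in library 4 when thinned. Against the strict set list medians turned in libraries 3 and 4 for heme and iron (-0.14 and -0.0215), growth factors (0.6 and 0.77) and chemokines (-0.41 and -0.82), in library 3 alone for guidance and ion transport (0.25), and in library 4 alone for inflammatory genes (0.08), transcription factors (-0.24), glycolysis (-0.03) and cell cycle (0.41), while the median of all genes turned to 0.04 and 0.07. The medians against the strict set also rest on fewer measured genes, 6 against 16 for growth factors. The cause of these moves was not tested, beyond the fewer UMIs and nuclei that thinning and the strict set leave by construction.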
